A study of Homo sapiens with 4 samples.

Results

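Clotting and its reversal are carried by a small set of proteins on and around cells. Tissue factor (F3) starts coagulation, and the tissue factor pathway inhibitors restrain it. Thrombomodulin (THBD) and the endothelial protein C receptor (PROCR) turn thrombin toward the activation of protein C, an anticoagulant, and factor XIII A (F13A1) cross-links fibrin. Urokinase (PLAU), bound to its receptor (PLAUR), and tissue-type plasminogen activator (PLAT) turn plasminogen into plasmin, which dissolves fibrin. Acute promyelocytic leukemia (APL) is known for a bleeding disorder in which both arms are active, so transcripts of 10 such genes were followed here in an APL cell line. The genes were chosen by name, as F3, TFPI, TFPI2, PLAU, PLAUR, PLAT, THBD, PROCR, F2R and F13A1, and every probe that carried 1 of these names was taken. They are 10 of the 30811 gene names on the array and had 12 of its 41000 probes, with 2 probes each for TFPI and TFPI2.

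NB4 is a long-established human cell line from APL. Naive NB4 cells were compared with an arsenic trioxide (ATO) resistant NB4 clone, with 2 flasks of each line. The clone is written NB4-VM-AsR1 in the labels and NB4-EV-AsR1 in the methods, and the names are taken for 1 clone, which is an assumption. Both lines were grown in RPMI with FBS, and the resistant cells had been kept without ATO for 1 week, so neither line was under the drug. A single resistant clone stands for resistance here, so that its own history and its resistance cannot be told apart. Bulk RNA was measured on 4 single-colour arrays of 1 slide, with naive flasks at the first positions and resistant flasks at the last, so that position and line cannot be told apart either.

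Each level below is the log2 of the background-subtracted spot signal minus the 75th percentile of its array, so that 0 is a bright probe and values near -8 are at the floor. The level of a gene is compared between flasks for 1 probe. Probes are set against each other only to pick the brightest probe of a gene, and their signals are added only in sums over marker lists. A probe was tested if the scanner software marked it well above background in both flasks of at least 1 line, and it was called at a Benjamini-Hochberg adjusted p below 0.05 by limma together with a change of at least 2-fold. Between 27921 and 28243 probes per array were well above background. The SD of the difference between the flasks of a line, over tested probes, was 0.71 for the naive and 0.37 for the resistant line. The number of arrays limits the precision, and an exact two-sided permutation test of 2 against 2 flasks cannot give a p below 0.333, so that a call leans on the variance that limma shares across probes.

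The first 30 of the 60 bases of the probes that the results turn on are shown 5′ to 3′ in the order of their strand, to make plain which transcript stretch each value reads. F13A1 and PLAUR had the changes of at least 2-fold, F3 is the initiator whose naive flasks differed, THBD was higher in both resistant flasks, and the pair of TFPI probes read different listed transcripts.
F13A1: atacatcatacttaactttactaagtaatc
PLAUR: acaggaccctgagctatcggactggcttga
F3: atacatggaaacgcaaatgagtatttcgga
THBD: acagggtctgcaaggtctttggttcagcta
TFPI, probe 1: agaacagattctactacaattcagtcattg
TFPI, probe 2: gccttctgcattcatgcatccatgttcttt
In build hg19 the F13A1 probe lies on the minus strand at chr6:6144425-6144484, PLAUR on the minus strand at chr19:44169498-44169557, F3 on the minus strand at chr1:94995888-94995947 and THBD on the minus strand at chr20:23026807-23026866. The TFPI probes lie on the minus strand at chr2:188332540-188332599 and chr2:188343406-188343465. The array's annotation lists the PLAUR probe for 3 RefSeq transcripts of the gene, so its value does not separate them.

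Of the 10 genes, F13A1 alone was called, and it was higher in the resistant cells. PLAUR was 2.23-fold lower in the resistant cells and missed the call, and F3, PLAU, PROCR and THBD were not called. Probes of PLAT, TFPI and TFPI2 were not well above background in any flask. Thus 1 of the 6 tested probes was called, against 5.27% of the 28220 probes tested on the whole array. The lines did not overlap for 3 of the 6 (F13A1, PLAUR and THBD), against 52.8% of all tested probes with a value in each flask, so that lack of overlap is common with 2 flasks per line. F13A1 passed the filter through the resistant line, where it is high, and among the 5 probes well above background in all flasks none was called by limma, with 1 (PLAUR) at an unadjusted p under 0.05. The median log2 change of the 6 was -0.17, with 2 higher and 4 lower in resistant cells, and that of all tested probes was -0.02.

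**Figure D1:**
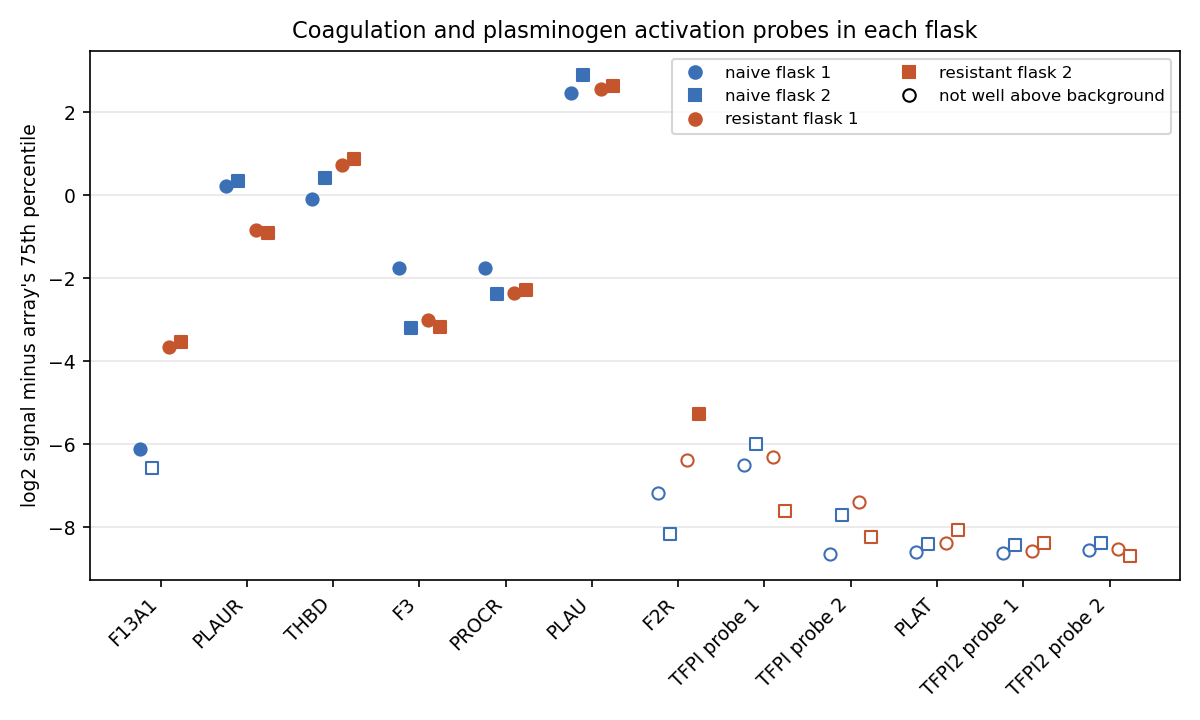
Log2 signal minus the array's 75th percentile (vertical axis) of the 12 probes in each of the 4 flasks, where blue marks naive and orange marks resistant flasks, and open symbols were not well above background. F13A1 lay between -6.58 and -6.12 in naive and between -3.65 and -3.54 in resistant flasks, and 1 naive F3 value stood above the other F3 values.

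Tissue factor, the receptor that binds factor VII and starts coagulation, was detected in each flask, but its level in the naive line was not settled by these arrays. The F3 probe read -1.75 and -3.19 in the naive flasks and -3.00 and -3.18 in the resistant flasks, from intensities of 321, 98.2, 131 and 93.0. The first naive flask was high, and the second was level with the resistant flasks, so the lines overlapped. The log2 change, resistant minus naive, was -0.62 (SE 0.50, adjusted p = 0.554 by limma). Of all tested probes, 5.27% had naive flasks at least as far apart as those of F3. Without the second naive flask F3 was called lower, at -1.34 with an adjusted p of 0.00734 by limma, and without the first the change was 0.11. The 2 probes of TFPI, the inhibitor of the tissue factor and factor VIIa complex, read from -8.64 to -5.99 and the 2 of TFPI2, a related inhibitor of serine proteases, from -8.70 to -8.38. None of these was well above background in any flask, so no change is given for either gene.

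Urokinase, the protease that activates plasminogen at the cell surface, was well above background in all flasks and did not differ detectably between the lines. PLAU read 2.47 and 2.91 in the naive flasks and 2.56 and 2.63 in the resistant flasks. Both resistant values lay between the naive ones. The log2 change was -0.09 (95% interval -0.74 to 0.55, adjusted p = 0.877 by limma), an interval that holds resistant to naive ratios from 0.600 to 1.46. The probe was printed 10 times on each array and the SD between its spots within an array ran from 0.02 to 0.09. Without the second naive flask the sign of the change turned, to 0.12.

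**Figure D2:**
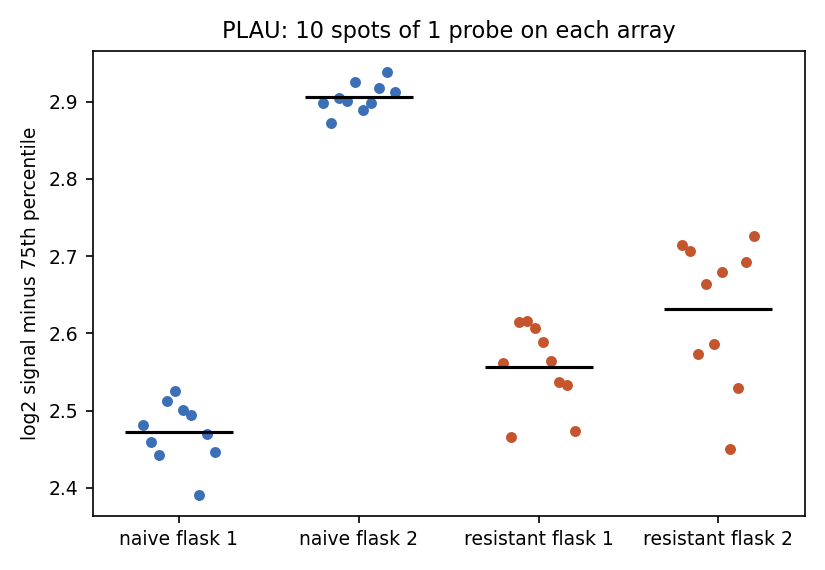
Log2 signal minus the array's 75th percentile (vertical axis, which does not start at 0) for the 10 spots of the PLAU probe in each flask, with the mean as a bar. Spots of 1 flask lay close together (SD 0.02 to 0.09), and the second naive flask, at 2.91, stood above the resistant flasks at 2.56 and 2.63.

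The urokinase receptor, which holds urokinase at the cell surface, was lower in both resistant flasks and missed the call by its adjusted p. PLAUR read 0.23 and 0.34 in the naive flasks and -0.84 and -0.90 in the resistant flasks. The flasks of each line lay close together and the lines did not overlap. The log2 change was -1.16 (SE 0.22, 95% interval -1.71 to -0.60, adjusted p = 0.0509 by limma). PLAUR was called under a scale normalization, with an intensity trend in limma and after a normexp background correction with bright local backgrounds reset. It was not called under quantile normalization (adjusted p = 0.0509 by limma) or with the replicate number as a block (adjusted p = 0.0876 by limma). By the t-test of the study's methods, which state no adjustment, its unadjusted p was 0.00311. After the adjustment made here it was not called by that t-test (adjusted p = 0.159), which then called 0 of 28053 probes on the whole array. With a flask left out its log2 change ran from -1.21 to -1.10, and it kept its sign in all settings run. The tissue-type plasminogen activator (PLAT), the other main activator, was read by a probe printed 10 times, of which 9 spots were kept on each array. It lay between -8.60 and -8.08 and was not well above background in any flask.

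Thrombomodulin, the thrombin receptor that starts protein C activation, was higher in both resistant flasks by less than 2-fold and was not called. THBD read -0.09 and 0.41 in the naive flasks and 0.74 and 0.87 in the resistant flasks. The lines did not overlap, though the naive flasks were further apart than the higher of them was from the resistant ones. The log2 change was 0.65 (95% interval -0.03 to 1.32, adjusted p = 0.279 by limma).

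The endothelial protein C receptor, which presents protein C to the thrombin and thrombomodulin complex, did not differ detectably. PROCR read -1.76 and -2.39 in the naive flasks and -2.34 and -2.28 in the resistant flasks. As with F3, the first naive flask was high and the rest lay together. The log2 change was -0.24 (95% interval -0.97 to 0.49, adjusted p = 0.704 by limma), and it was 0.07 without the first naive flask. The thrombin receptor F2R, a receptor that thrombin cleaves to signal into the cell, was well above background only in the second resistant flask and was not tested. It read -7.17 and -8.16 in the naive flasks and -6.39 and -5.27 in the resistant flasks.

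**Figure D3:**
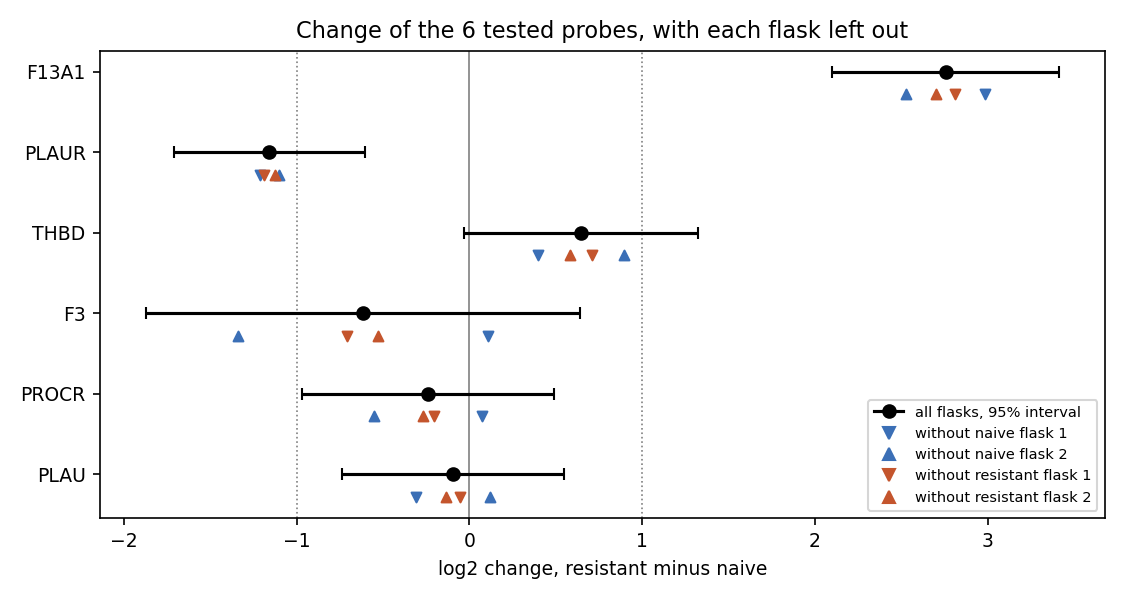
Log2 change, resistant minus naive (horizontal axis), of the 6 tested probes with the 95% interval of limma as a bar, and the change with each flask left out as triangles. F13A1 stayed between 2.53 and 2.99 and PLAUR between -1.21 and -1.10, while F3 ran from -1.34 to 0.11.

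Factor XIII A, the subunit that cross-links fibrin once thrombin has activated it, was higher in both resistant flasks. F13A1 read -6.12 and -6.58 in the naive flasks and -3.65 and -3.54 in the resistant flasks, from intensities of 15.5, 9.40, 83.5 and 72.5. The lines lay far apart, and the probe was dim in all 4 flasks. The fitted log2 change was 2.76 (SE 0.26, 95% interval 2.10 to 3.41 on the log2 scale, adjusted p = 0.00544 by limma). It was well above background in 1 of the 2 naive flasks, the first. The second naive value lay below the lowest signal well above background on its array (-6.17), so the fitted change and its p rest in part on a signal near background. With the normexp background correction, which adds 50 to each intensity, the change was 0.88 and was not called (adjusted p = 1.00 by limma). That correction called 0 of 28220 probes on the whole array, so the lost call is not particular to F13A1. With bright local backgrounds reset before it, the change was 0.94 (adjusted p = 0.0448 by limma), which is under 2-fold and so not called.

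F13A1 is also known as a transcript of monocytes, macrophages and megakaryocytes, so markers of these cells are given beside it. The summed level of 5 monocyte and macrophage markers, on the log2 scale, was 1.82 and 1.96 in naive and 2.86 and 3.03 in resistant flasks. Linear signals were added, so this sum mostly restates the brightest of these markers, CSF1R. By itself CSF1R read 1.47 and 1.68 in naive and 2.70 and 2.90 in resistant flasks. Of the 4 that could be tested, MARCO, a macrophage scavenger receptor, rose by 1.87 (adjusted p = 0.0128 by limma). CD14, a monocyte surface receptor, changed by -0.50 (adjusted p = 0.300 by limma), CD68 by -0.18 and CSF1R by 1.23 (adjusted p = 0.0519 by limma), none of them called, and CD163 was not well above background in any flask. The summed level of 6 megakaryocyte and platelet markers, of which GP9 was the brightest and made up most of the sum, was 0.45 and 1.04 in naive and 0.81 and 0.84 in resistant flasks. Of the 5 that could be tested, ITGA2B, the platelet fibrinogen receptor subunit, fell by 2.40 by its brighter probe (adjusted p = 0.0319 by limma), while its other probe, at -1.63, was not called (adjusted p = 0.0709 by limma). The others, GP9 at 0.47, PF4 at 0.11, GP6 at 0.03 and GP1BA at -0.34, were not called, and PPBP was not well above background. Their part in the F13A1 result was not tested, and in bulk RNA fewer cells of a type and less RNA per cell cannot be told apart.

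All 7 promyelocyte and myeloid markers on the array were tested and 6 were well above background in all flasks, with the granule proteins MPO and CTSG among the saturated probes. Of these 7, ELANE and AZU1, both granule proteins, were called higher in the resistant line, and ANPEP, a surface peptidase of myeloid cells, was called lower. That is 3 of 7, against 5.46% of all genes tested. The others were not called, with log2 changes of 2.39 for PRTN3 (adjusted p = 0.179 by limma), 0.78 for CTSG, 0.06 for MPO and -0.29 for CD33. The naive flasks of PRTN3 lay far apart, at 3.16 and 0.80. ELANE passed the filter through the resistant line and was well above background in 1 of the 2 naive flasks. Its second naive value (-6.56) lay below the lowest signal well above background on that array (-6.17), so its p rests in part on a signal near background. AZU1 lay close to the threshold (adjusted p = 0.0472 by limma). The defining endothelial markers CDH5, KDR and TEK were not well above background in any flask. The other 3 of the 6 endothelial markers, PECAM1, VWF and ESAM, were well above background in all flasks by their brightest probe and were not called, with log2 changes of 0.31, -0.19 and -0.63.

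**Figure D4:**
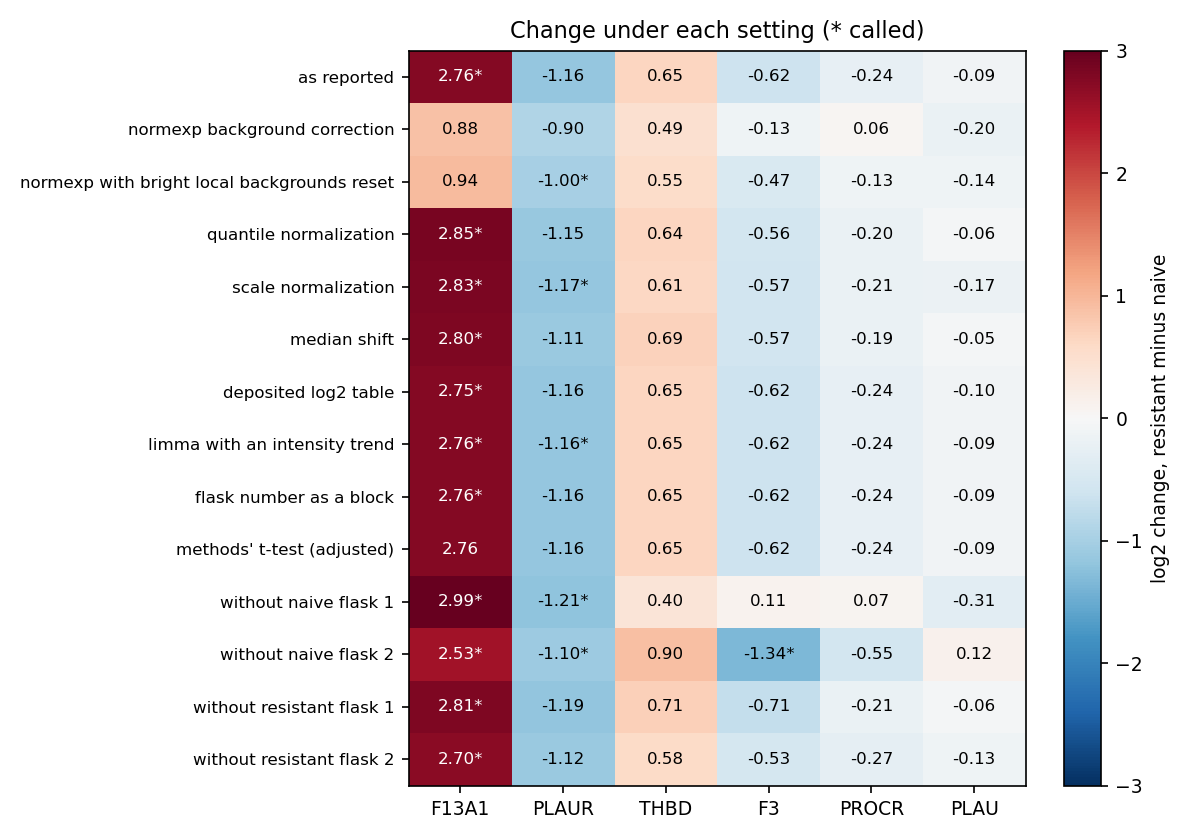
Log2 change, resistant minus naive (colour and printed value), of the 6 tested probes (columns) under the settings run on them (rows), with an asterisk where the probe was called. Settings that changed only which probes were kept are not shown. F13A1 was positive and PLAUR negative in each row, and F3, PROCR and PLAU changed sign in at least 1 row.

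The other genes of the haemostatic system were read from a list of 57 symbols, of which 55 were on the array. PLGRKT and TMEM16F were not, but these are other names of C9orf46 and ANO6, which were. Each gene was read by its brightest probe. Of the 37 that could be tested, 3 were called higher (F2, PROS1 and ITGAM) and 1 lower (S100A10), which is 4 of 37 against 5.46% of all 20952 genes tested. Of all genes, 2.49% were called higher and 2.97% lower. The lines did not overlap for 25 of the 37, against 53.6% of all genes read by their brightest probe with a value in each flask. The median log2 change of the 37 was -0.16. By their brightest probe the remaining 18 were not well above background in any flask, among them the fibrinogen chains FGA, FGB and FGG.

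Among the coagulation factors, prothrombin (F2), the precursor of thrombin, was at least 15.1-fold higher in resistant cells on the background-subtracted signal. The adjusted p of 0.00198 by limma belongs to its fitted log2 change of 4.61, not to that bound. The brightest F2 probe read -6.61 and -7.31 in the naive flasks and -2.39 and -2.29 in the resistant flasks. It was not well above background in either naive flask, which is why a bound is given, and it was tested only because both resistant flasks were, so that its p rests on naive values near background. The other F2 probe read between -6.53 and -6.32 in all 4 flasks and was not tested, so the probes of this gene did not move together. After the normexp correction, which called no probe of the whole array, the log2 change of the first probe was 1.49 and was not called (adjusted p = 1.00 by limma). With bright local backgrounds reset before that correction, it was 1.85 and was called (adjusted p = 0.00295 by limma). Both changes are smaller than the bound, which holds for the background-subtracted signal alone. The other 8 procoagulant factors that could be tested were not called.

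Protein S (PROS1), the cofactor of activated protein C, was at least 3.09-fold higher in resistant cells on the background-subtracted signal. The adjusted p of 0.00211 by limma belongs to the fitted log2 change of 3.66, not to that bound. The brightest probe read -8.25 and -8.33 in the naive flasks and -4.83 and -4.43 in the resistant flasks. Both naive flasks were at the floor and both resistant flasks were above it, and as for F2 the probe was tested through the resistant line alone, with a p that rests on naive values at the floor. A second of its 3 probes was also called (adjusted p = 0.00430 by limma), and the third was not tested. The second read -8.65 and -8.44 in naive and -5.79 and -5.98 in resistant flasks. It too was tested through the resistant line alone, with naive values at the floor and dim resistant values. After the normexp correction, which called no probe of the whole array, the log2 change of the brightest probe was 0.73 and was not called (adjusted p = 1.00 by limma). With bright local backgrounds reset before that correction, it was 0.68 and was not called either (adjusted p = 0.144 by limma). Both changes are smaller than the bound given for PROS1. PROS1 has a closely similar pseudogene, and whether its probes separate the copies was not tested. Protein C (PROC) itself read -5.69 and -6.26 in naive and -5.08 and -4.49 in resistant flasks, with a log2 change of 1.19 that was not called (adjusted p = 0.137 by limma). PROC passed the filter through the resistant line and was well above background in 1 of the 2 naive flasks. Its second naive value lay below the lowest signal well above background on that array (-6.17).

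Of the 9 plasminogen and urokinase receptor partners that could be tested, 1 was called higher, 1 was called lower and the others were not called, with a median log2 change of -0.29. Integrin alpha M (ITGAM), a partner of the urokinase receptor on myeloid cells, rose by 2.01 on the log2 scale (SE 0.24, adjusted p = 0.0114 by limma). It read -0.79 and -0.98 in naive and 0.99 and 1.26 in resistant flasks. S100A10, the plasminogen-binding partner of annexin A2, fell by 2.21 (SE 0.35, adjusted p = 0.0287 by limma). It read 3.17 and 2.42 in naive and 0.35 and 0.81 in resistant flasks. For neither gene did the lines overlap, and neither was called without the first or without the second resistant flask.

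Annexin A2 (ANXA2), which holds plasminogen and its activator at the surface of APL cells, read 3.96 and 2.77 in naive and 1.47 and 1.23 in resistant flasks. The lines did not overlap, and the log2 change of -2.01 was not called (SE 0.43, adjusted p = 0.0730 by limma). All 3 of its probes read lower in both resistant flasks than in either naive flask, and their adjusted p by limma ran up to 0.0968. ANXA2 was called with an intensity trend, after normexp with bright local backgrounds reset, with the replicate number as a block, and without either the first or the second naive flask. ANXA2 has several pseudogenes, and whether its probes separate them was not tested.

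Fitted changes of at least 2-fold without overlap that were not called were also seen for SERPINE2, F2RL3 and SERPINF2, of which only a smaller lower bound can be given for SERPINF2. SERPINE2, an inhibitor of thrombin and urokinase, had a log2 change of -1.67 (adjusted p = 0.180 by limma). F2RL3, a thrombin receptor related to F2R, had a log2 change of -1.39 (adjusted p = 0.137 by limma) and was well above background in 1 of the 2 resistant flasks. The plasmin inhibitor SERPINF2 was at least 1.24-fold higher and was not well above background in the naive flasks. Its adjusted p of 0.0590 by limma belongs to the fitted log2 change of 1.15.

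**Figure D5:**
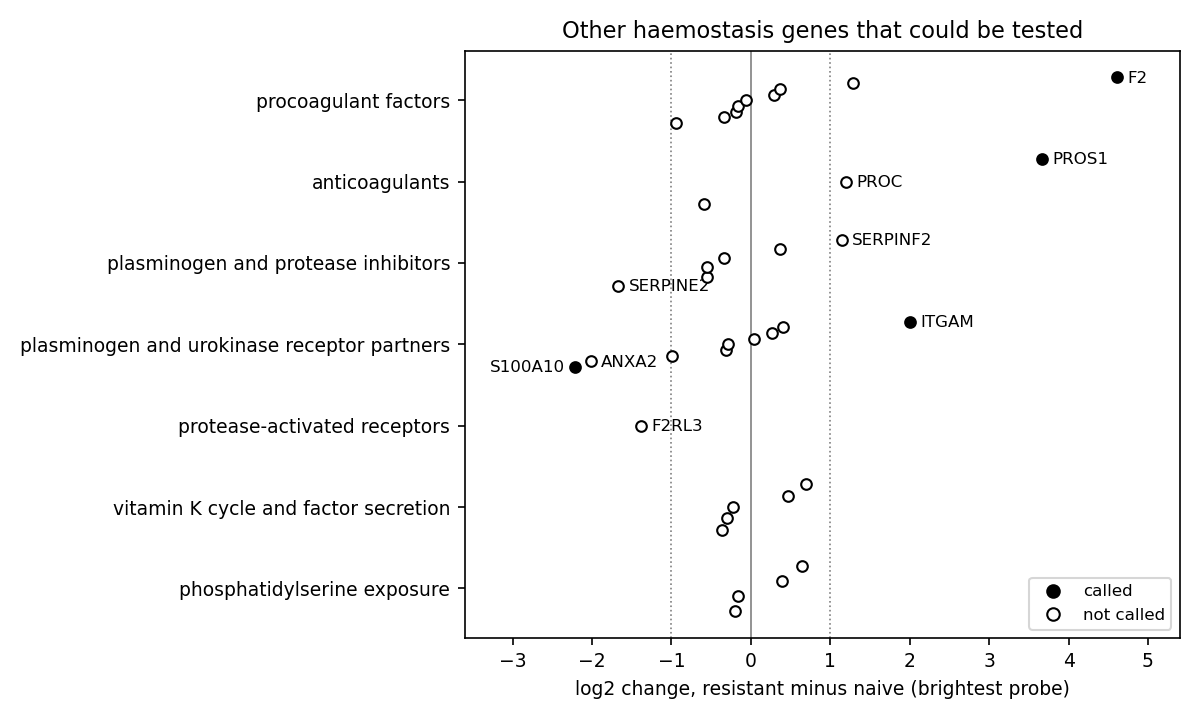
Log2 change, resistant minus naive (horizontal axis, dotted lines at 2-fold), of the 37 other haemostasis genes that could be tested, each by its brightest probe and grouped by role, with called genes filled. F2, PROS1 and ITGAM were called higher and S100A10 lower, and the points of F2 and PROS1 are fitted values whose naive signal was not well above background.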

How the data were processed

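RNA of 2 naive and 2 resistant flasks was labeled with Cy3 and hybridized to 1 array each. The authors read the scans with Agilent Feature Extraction 10.5.1.1. Its deposited spot table gives a processed signal, a linear intensity after background subtraction. A second deposited table holds log2 values, which the authors had shifted by the 75th percentile per array and which had a Pearson's r of at least 0.9998 with the values computed here. From the intensities, control spots and outlier spots were left out, log2 was taken in R 4.3.3, spots of a probe were averaged and the 75th percentile was subtracted. The mean spot signal and local background intensities, as deposited, served the normexp alternative. Lines were compared with limma 3.58.1 over all 28220 probes tested, and the script was tested on simulated data. In these, the share of false calls stayed near or under the nominal rate except where few probes changed and moderated SDs were taken as true, where it was above that rate, so that the calls may hold more false ones than the adjusted p states. A gene of the wider list was read by its brightest probe. For a probe below background in both flasks of a line, a lower bound was computed per array against the dimmest probe still well above background, or against the probe itself where that was brighter. This floor is not a detection limit for each probe. On the second naive array a TFPI probe read -5.99, above the floor of -6.17, and was not well above background.

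The members and lists were chosen with earlier results of these data known. Named were all members, genes of the wider list that were called or changed at least 2-fold without overlap, and markers that were called or needed to check the lines. A marker is not reported here and was left out of its list. Accessions of 11 of the 12 member probes were found in the RefSeq table of GRCh38.p14. Probe sequences and hg19 positions are those of the scanner files. Alternatives were another background correction, normalization, filter, variance model, source of values, test or threshold, the mean over a gene's probes, the replicate number as a block, and each flask left out. P-values by limma set the difference between the lines against the spread between flasks of a line, part of which is shared over probes. They do not cover variation between clones.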

Additional observations from a re-analysis of the deposited data

How the results depend on the processing

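Of 95 values of the 6 tested changes under other settings, 82 kept their sign and their side of the threshold. The signs that turned were those of F3 without the first naive flask (0.11), PLAU without the second naive flask (0.12), and PROCR without the first naive flask (0.074) and after normexp (0.056), none of them called. With a flask left out the changes ran from -1.34 to 0.11 for F3, from -0.31 to 0.12 for PLAU and from -0.55 to 0.074 for PROCR, and F3 was called without the second naive flask. The count of members called, 1 as reported, was 0 after normexp, with 0 at an unadjusted p under 0.05 by limma, 0 of 5 among probes well above background in all flasks, which leaves out F13A1, and 0 by the methods' t-test after adjustment, with 2 at an unadjusted p under 0.05. It was 2 with scale normalization, with an intensity trend and at 2-fold with no test, and between 1 and 3 with a flask left out. F13A1 stood at 0.94 after normexp with bright backgrounds reset, under 2-fold. Of the wider list, 4 genes as reported, 0 were called after normexp (4 at an unadjusted p under 0.05 by limma) and by the methods' t-test (7 unadjusted), 2 among probes well above background in all flasks, 10 at 2-fold with no test, and between 2 and 11 with a flask left out, with 2 without either resistant flask, 11 without the first naive flask and 7 without the second. These counts move with the whole array, where 12.3% of tested probes reached 2-fold, and 13.2% and 16.1% were called without the first and the second naive flask, against 2.63% and 2.58% without the first and the second resistant flask. Over the whole array, normexp called 0 of 28220 probes (930 at an unadjusted p under 0.05 by limma). The methods' t-test after adjustment likewise called 0 of 28053 probes, with 14.7% at an unadjusted p under 0.05 by that test. Causes were not tested. Where a line was left with 1 flask, that flask was assumed to vary like the other line's.

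With the replicate number as a block, 1 member was called and 6 genes of the wider list, adding ANXA2 and SERPINE2. The deviations of same-numbered flasks correlated at 0.12, over 2 pairs only, and so few pairs do not settle if equal numbers mean a shared origin of the flasks. No slide block was run, since all arrays lay on 1 slide.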
